A study of Mus musculus with 9 samples.

Results

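Bone morphogenetic protein (BMP) and growth and differentiation factor (GDF) genes were examined in mouse glomeruli, the filtering units of the kidney, from mice with and without Cosmc in podocytes. Podocytes are the epithelial cells whose foot processes cover the outer face of the capillaries. The 8 genes are the ligands Gdf5, Gdf6, Gdf15, Bmp2, Bmp4, Bmp6 and Bmp7 and the inhibitory signalling protein gene Smad6, out of 16867 genes in the deposited table. They were picked by name with the group difference in view, because Gdf6 had the largest gain and Gdf5 a strong loss in Cosmc KO. Differences of these 8 genes between Cosmc KO and control are therefore given as a description, without a test.

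BMP and most GDF proteins are secreted dimers that bind paired type I and type II serine/threonine kinase receptors. The BMP receptors phosphorylate Smad1, Smad5 and Smad9, which enter the nucleus with Smad4 and switch on targets such as the Id genes. Smad6 is induced by the same pathway and shuts it down, and extracellular antagonists capture the ligands before they reach a receptor. In the kidney, Bmp7 is needed for nephron formation and is made by podocytes, and Bmp4 takes part in ureter and glomerular capillary development. Gdf15 is a distant family member that signals through Gfral and Ret in the hindbrain and is induced by cell stress.

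The samples were glomeruli isolated by magnetic bead perfusion from C57BL/6 males, 1 library per animal. Controls 1, 4 and 5 were Podo-Cre; Cosmc Y/+ and aged 35, 30 and 30 days, control 2 was Cosmc Y/flox without Cre and aged 34 days, and control 3 was Cosmc Y/+ without Cre and aged 31 days. Cosmc KO 1 to 4 were Podo-Cre; Cosmc Y/flox and aged 35, 34, 31 and 30 days, so that deletion was directed to podocytes by the transgene, and none is stated for the other cells of the preparation. Cosmc is the chaperone that mucin-type O-glycan synthesis needs, and its gene is listed as C1galt1c1. Poly(A) RNA libraries held 31512284 to 58074717 reads over the listed genes. Values below are normalized read counts, meaning reads divided by 1 size factor per library, given per library or as mean ± SD (n = 5 controls, n = 4 Cosmc KO). Each log2 fold change is the limma estimate ± SE on log2(value + 1), positive where Cosmc KO is higher.

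C1galt1c1 read 751 to 1123 in Cosmc KO and 1385 to 1552 in controls, without overlap; which part is floxed is not stated (log2 fold change -0.63 ± 0.11, adjusted p = 0.0111, limma with Benjamini-Hochberg adjustment). All 10 podocyte markers were present in every library, as were 10 proximal tubule and 10 distal nephron markers. The summed proximal tubule markers went from 49497 up to 236921 among controls and from 75925 up to 711429 among Cosmc KO libraries, and Cosmc KO 1 had the lowest sum of the Cosmc KO group. The summed podocyte markers ranged from 872568 to 1272260 in controls and from 361780 to 944044 in Cosmc KO, with 4 of 10 markers lower by limma's test and none higher. None of the 10 proximal tubule markers passed, though all 10 estimates were positive. With the replicate number as a block, which leaves out control 5, 9 of 10 podocyte markers were lower and 10 of 10 proximal tubule markers higher. Of all genes tested, 7.74% were called without the block (4.16% higher and 3.58% lower) and 16.6% with it. In bulk RNA, fewer cells of a type and less RNA per cell cannot be told apart. The 7 parietal markers summed to between 8416 and 10819 in controls, against 17121 to 20144 in Cosmc KO, but went both ways: 3 were higher and 1 was lower, Ncam1, from 1358 ± 304 to 689 ± 127 (-0.97 ± 0.17, limma adjusted p = 0.0105). The 8 macrophage markers summed to between 6554 and 14029 in controls, against 14487 to 21253 in Cosmc KO, with 5 higher by limma's test, and the part of these cells in the differences below was not tested. Of 8 mesangial markers, 3 were higher and 0 lower by limma's test. The 3 were Acta2, Tagln and Serpine2. Estimates of the uncalled markers were -0.34 for Pdgfrb, -0.30 for Ren1, 0.01 for Itga8, 0.08 for Gata3 and 0.23 for Des. Of the 10 distal nephron markers, 0 were higher and 1 was lower. This was Pvalb, from 1974.5 ± 976 to 449 ± 251 (-2.24 ± 0.45, limma adjusted p = 0.0178). No marker of these lists was at 0 in any library.

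Gdf5 and Gdf6 are close relatives within the family, both made in developing joints, and they moved in opposite directions here. Their sequences are shown because reads shared between the copies would bear on both values. The most alike 150 bases of the coding sequences, the length of 1 read, lie near the 3′ end of the coding sequence in exon 2 of each gene, at bases 1204 to 1353 of 1485 in Gdf5 and 1081 to 1230 of 1362 in Gdf6. In GRCm38 they are chr2:155941678-155941827 on the minus strand for Gdf5 and chr4:9860000-9860149 on the plus strand for Gdf6. Capitals mark the 30 bases that differ.
Gdf5: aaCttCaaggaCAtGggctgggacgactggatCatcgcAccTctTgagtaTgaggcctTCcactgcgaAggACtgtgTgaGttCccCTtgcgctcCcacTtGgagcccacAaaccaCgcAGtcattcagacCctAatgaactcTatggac
Gdf6: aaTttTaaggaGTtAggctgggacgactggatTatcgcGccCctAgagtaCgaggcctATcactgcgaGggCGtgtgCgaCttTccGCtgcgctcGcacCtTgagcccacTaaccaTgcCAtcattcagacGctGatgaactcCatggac
The remaining 120 bases (80.0%) are identical. The longest identical run between the complete GENCODE transcripts of Gdf5 and Gdf6 is 17 bases, and over all pairs of the 8 genes it is 28 bases, between Bmp4 and Bmp7.

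Gdf6 was almost silent in control glomeruli and present in every Cosmc KO library. The gene lies on chromosome 4, from 9844372 to 9862345 on the plus strand. Controls 1 to 5 read 1.06, 0, 1.00, 1.05 and 5.39, which correspond to 1, 0, 1, 1 and 5 sequenced reads. Cosmc KO 1 to 4 read 94.3, 144, 120 and 476, from 77, 161, 157 and 691 reads. The lowest Cosmc KO library was thus far above the highest control. The means were 1.70 ± 2.11 and 209 ± 179, a ratio of 123, and the log2 fold change was 6.24 ± 0.59. The ratio of means rested on single libraries: it was 268 without control 5, which held 5 of the 8 control reads, and 70.3 without Cosmc KO 4. The log2 fold change in these fits was 6.62 and 5.74. This fold depends on the pseudocount because the control values are near 0: it was 6.71 with 0.5 and 4.98 with 4 in place of 1. Gdf6 passed the filter on low values (at least 10 in at least 4 libraries) only through the Cosmc KO libraries. Cosmc KO 1, whose tubule markers lay within the control range, had 94.3 for Gdf6. A fit that included the tubule score gave a log2 fold change of 6.56 ± 0.68, again from controls of 0 to 5 reads. What part tubule content had in the Gdf6 difference was not tested.

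Gdf5, on the minus strand of chromosome 2 from 155941023 to 155945367, was lower in Cosmc KO, where its highest library lay under the lowest control. Controls 1 to 5 read 198, 142, 149, 503 and 320, and Cosmc KO 1 to 4 read 49.0, 25.1, 42.8 and 69.6. The means were 262 ± 152 and 46.6 ± 18.3, a 5.63-fold difference, with a log2 fold change of -2.38 ± 0.41. Controls 4 and 5, the youngest, were the highest of the controls, and Cosmc KO 4, of the same age, was the highest of its group. The oldest animals, control 1 and Cosmc KO 1, came next in their groups. Controls 1, 4 and 5 carry Cre, and each read above controls 2 and 3, which do not. Controls 2 and 3 also had the highest summed proximal tubule markers of the controls (236921 and 211440). When the tubule score was a term, the Gdf5 log2 fold change was -1.99 ± 0.43. The part of tubule content in the Gdf5 values was not tested. Among animals that share a number and an age, the difference ran from -1.78 in pair 3 to -2.84 in pair 4 on the log2(value + 1) scale. An annotated gene on the opposite strand, Gm15557, shares 936 exonic bases with Gdf5, and whether the reads were counted by strand is not given in the sources used here.

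**Figure D1:**
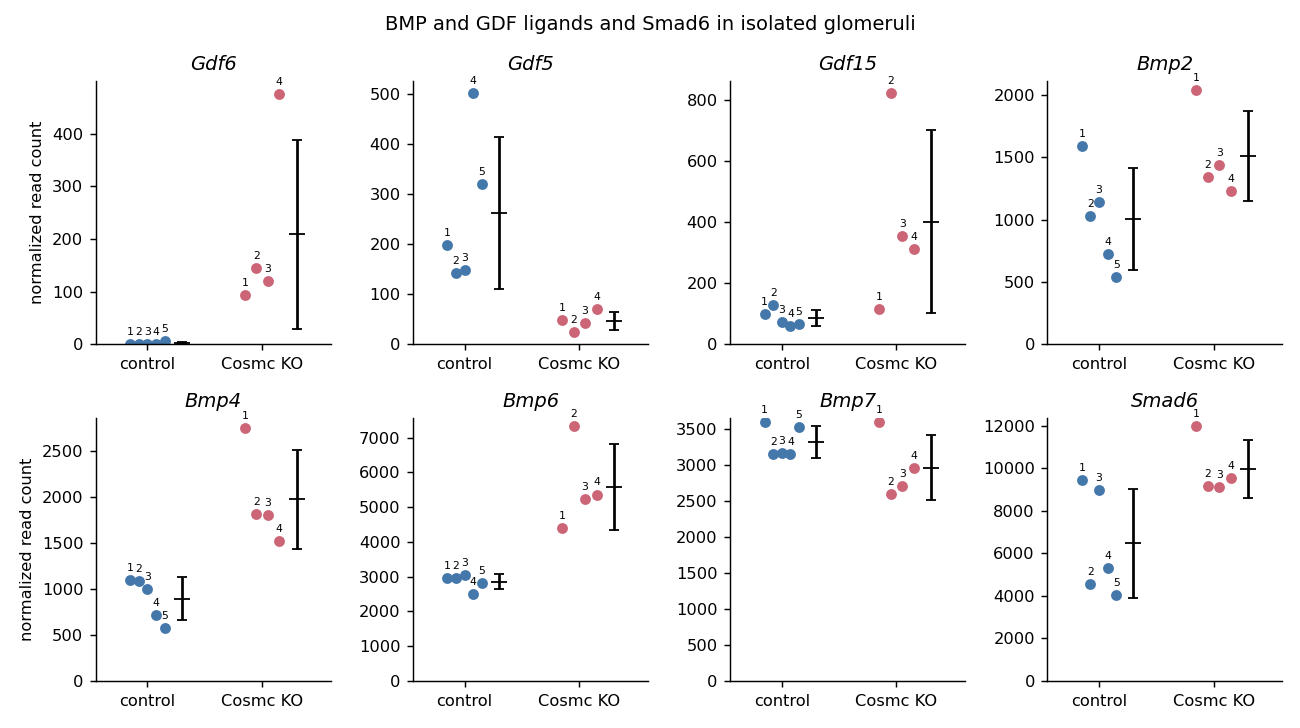
Normalized read count (vertical axes, from 0) of each gene in 5 control (blue) and 4 Cosmc KO (red) libraries, with replicate numbers above the points and mean ± SD in black. The groups do not overlap for Gdf6, Gdf5, Bmp4 and Bmp6; Gdf15 in Cosmc KO 1 (115) lies among the controls.

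Gdf15, the stress-responsive member on chromosome 8 (70629393 to 70632456, minus strand), was raised in 3 of the 4 Cosmc KO libraries. Controls 1 to 5 read 100, 127, 73.1, 61.0 and 66.9, and Cosmc KO 1 to 4 read 115, 824, 354 and 312. Cosmc KO 1 lay below control 2, so the groups overlapped. The means were 85.7 ± 27.6 and 401 ± 301, with a log2 fold change of 1.94 ± 0.48. The order of the Cosmc KO libraries by Gdf15 was 2, 3, 4 and 1, the same as their order by the proximal tubule score (14.64, 14.50, 13.38 and 11.42; the score averages log2(value + 1) over the 10 markers). Controls 2 and 3, with scores of 13.00 and 12.98, read 127 and 73.1. When the tubule score was a term, the log2 fold change was 1.23 ± 0.40, and without Cosmc KO 1 it was 2.43 ± 0.36. Without Cosmc KO 2, the highest library, it was 1.49, and the ratio of means fell from 4.68 to 3.04. The part of tubule content in the Gdf15 difference was not tested.

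**Figure D2:**
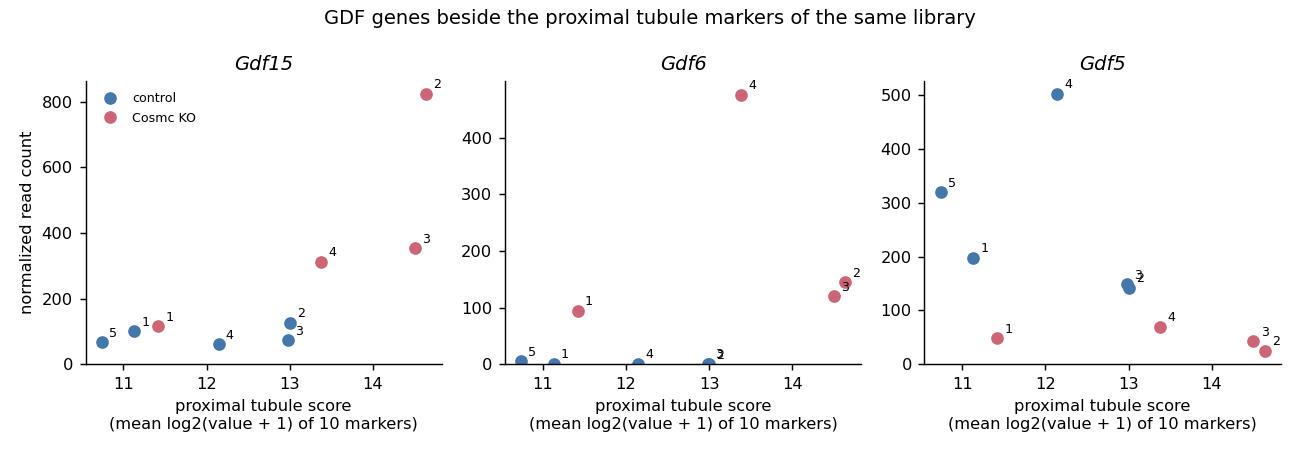
Normalized read count of Gdf15, Gdf6 and Gdf5 (vertical axes, from 0) against the proximal tubule score of the same library (horizontal axes), with controls in blue, Cosmc KO in red and replicate numbers beside the points. Cosmc KO 1 has a score of 11.42, within the control range, and lies with the controls for Gdf15 but not for Gdf6 (94.3) or Gdf5 (49.0).

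Known companions of Gdf15 in cell stress were compared in the same fit, from a list of 10 transcription factors and metabolic or cell cycle genes. Of these, 2 rose, 0 fell and 8 did not pass (7.74% of all genes were called, 4.16% as higher), with a median log2 fold change of 0.22 against 0.00 over all 16764 genes tested. Sesn2, a regulator of nutrient signalling, rose from 695 ± 82.1 to 1457 ± 534 (0.99 ± 0.24, limma adjusted p = 0.0358), and its level in Cosmc KO 1 was 796. Asns, asparagine synthetase, rose from 195 ± 25.1 to 306 ± 36.0 (0.65 ± 0.14, limma adjusted p = 0.0241). Sesn2 stayed called without Cosmc KO 1 but lost its call in each of the other 8 fits that leave out a library (limma adjusted p = 0.058 to 0.112). Asns lost its call without control 1, 3 or 5 or Cosmc KO 2 or 3 (0.054 to 0.0896), and with the tubule covariate (0.0904). With that covariate the Sesn2 estimate was 0.55 (limma adjusted p = 0.0433). Against the Cre-carrying controls only, neither gene passed (limma adjusted p = 0.0956 for each). For the stress factor gene Atf4 the estimate was 0.02 ± 0.09 (limma adjusted p = 0.882), and for the cell cycle inhibitor gene Cdkn1a it was 0.74 ± 0.58 (limma adjusted p = 0.42).

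Bmp4 and Bmp6 were both higher in Cosmc KO, without overlap between the groups. Bmp4, on the minus strand of chromosome 14 from 46383520 to 46390669, read 1100, 1089, 997, 721 and 571 in the controls by number. Cosmc KO 1 to 4 read 2753, 1813, 1803 and 1525. The means were 896 ± 237 and 1974 ± 536 (log2 fold change 1.15 ± 0.23). Bmp6, which is made by mouse liver endothelium and induces the iron hormone hepcidin, lies on chromosome 13 from 38345107 to 38500302 on the plus strand. It read 2974, 2961, 3038, 2508 and 2812 in controls and 4389, 7334, 5244 and 5366 in Cosmc KO. The Bmp6 means were 2859 ± 213 and 5583 ± 1246 (0.94 ± 0.13). Cosmc KO 1 was the highest Cosmc KO library for Bmp4 and the lowest for Bmp6. Bmp6 shares 224 exonic bases with Txndc5 and Bmp4 shares 89 with Gm15217, each on the opposite strand; Txndc5 had a log2 fold change of 0.21 ± 0.08 and Gm15217 of 1.49 ± 0.55.

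Bmp2, a ligand closely related to Bmp4 and located on chromosome 2 (133552159 to 133562885, plus strand), overlapped between the groups. Controls read 1593, 1030, 1144, 725 and 537, and Cosmc KO 2038, 1345, 1440 and 1231. The means were 1006 ± 407 and 1514 ± 360 (log2 fold change 0.66 ± 0.29). Smad6, which blocks receptor-activated Smads, lies on chromosome 9 (63953076 to 64022059, minus strand) and read 9439, 4555, 8975, 5333 and 4043 in controls. Cosmc KO read 11979, 9162, 9117 and 9545, so that only control 1 reached into the Cosmc KO range. The Smad6 means were 6469 ± 2547 and 9951 ± 1366 (0.70 ± 0.26).

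Libraries of the same number and age stood alike within their groups for several of these genes. The oldest pair (number 1, 35 days) had the highest Bmp2, Bmp4 and Smad6 in both groups. The youngest controls (4 and 5, 30 days) had the lowest Bmp2 and Bmp4. Within the 4 pairs of the same number, Cosmc KO was higher than control in 4 of 4 for Bmp2 (0.33 to 0.76 on the log2(value + 1) scale), Bmp4 (0.74 to 1.32), Bmp6 (0.56 to 1.31) and Smad6 (0.02 to 1.01). With a term for the 4 pairs of equal number (the replicate block, which leaves out control 5), the log2 fold changes were 0.46 ± 0.11 for Bmp2 and 0.55 ± 0.15 for Smad6. Age, litter and day of preparation cannot be told apart here, because animals of 1 number share an age.

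**Figure D3:**
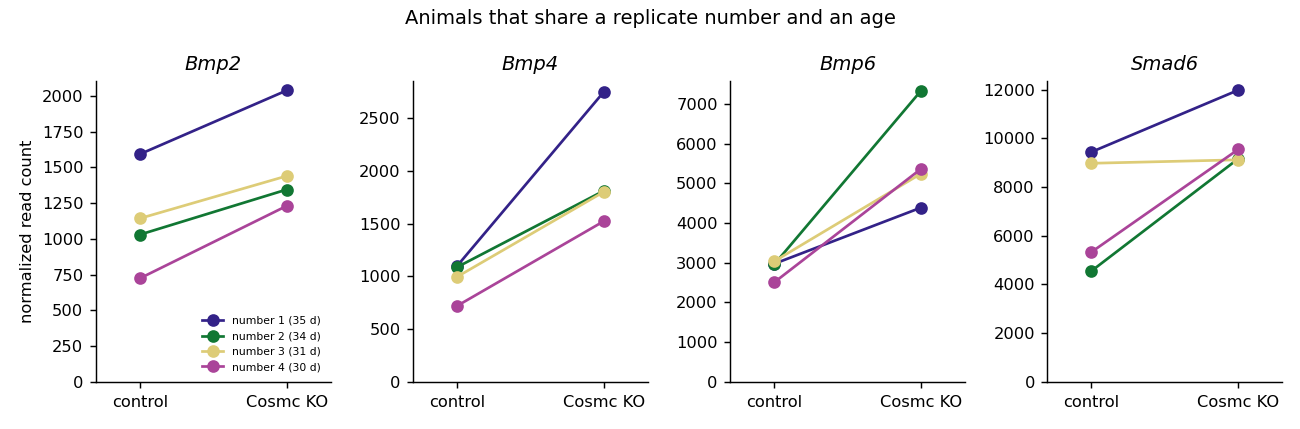
Normalized read count (vertical axes, from 0) in control and Cosmc KO animals that share a replicate number and an age, joined by lines. All 4 lines rise for Bmp2, Bmp4 and Bmp6; for Smad6 the line of number 3 is nearly flat (8975 and 9117).

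Bmp7 differed least of the 8. It lies on chromosome 2 (172868012 to 172940321, minus strand) and read 3605, 3157, 3171, 3163 and 3531 in controls, and 3608, 2601, 2708 and 2961 in Cosmc KO. The means were 3326 ± 223 and 2970 ± 451 (log2 fold change -0.17 ± 0.10). Cosmc KO 1 was level with the highest control, whereas Cosmc KO 2 to 4 lay below all controls. Cosmc KO 2 to 4 were also the libraries with the lowest summed podocyte markers (361780 to 621242), and the part of podocyte content in the Bmp7 values was not tested. When the tubule score was a term, the difference was 0.00 ± 0.07.

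All 8 genes passed the filter on low values. Of the 8, 5 were past an adjusted p of 0.05 in limma's fit, 4 higher (Gdf6, Gdf15, Bmp4 and Bmp6) and 1 lower (Gdf5), against 7.74% of all genes tested in either direction, 4.16% higher and 3.58% lower. The groups did not overlap for 4 of the 8, against 11.9% of all genes. The authors' deposited table has the same 5 below an adjusted p of 0.05, against 16.0% of its genes. With the replicate block, 7 of the 8 were past the threshold, against 16.6% of all genes, and with the tubule covariate 4 of the 8, against 5.17%. Without Cosmc KO 1, 6 of the 8 were past it, against 29.1%. Since the members were picked with this contrast in view, nothing is read from these counts. Gdf15 was past the threshold in 1 of the 9 fits that leave out a library, the one without Cosmc KO 1, and Gdf5, Gdf6, Bmp4 and Bmp6 in all 9.

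Levels between genes were compared per kb of exon, using GENCODE exon lengths. In controls Smad6 had the highest level per kb (2018 ± 795), followed by Bmp7 (827 ± 55.5), Bmp6 (733 ± 54.5), Bmp4 (398 ± 106), Bmp2 (283 ± 115), Gdf5 (113 ± 65.6), Gdf15 (46.3 ± 14.9) and Gdf6 (0.482 ± 0.598). Neighbours in this order stood in the same order in all 5 control libraries, except Bmp2 over Gdf5 and Gdf5 over Gdf15, which did so in 4 of 5. The mean levels of Bmp7 and Bmp6, of Bmp4 and Bmp2, of Bmp2 and Gdf5, and of Gdf5 and Gdf15 differed by less than the sum of their SDs. Among the ligands of the 8 genes, the highest mean level per kb was that of Bmp7 in controls and of Bmp6 in Cosmc KO. Gdf10, a ligand outside the 8, had a higher mean in controls (1745 per kb). Bmp7 exceeded Bmp6 per kb in 5 of 5 controls and in 0 of 4 Cosmc KO libraries, where Bmp6 reached 1125 to 1881 and Bmp7 647 to 898. Gdf5 was above Gdf6 per kb in controls by mean level, and Gdf6 (59.1 ± 50.8) above Gdf5 (20.1 ± 7.91) in 4 of 4 Cosmc KO libraries.

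**Figure D4:**
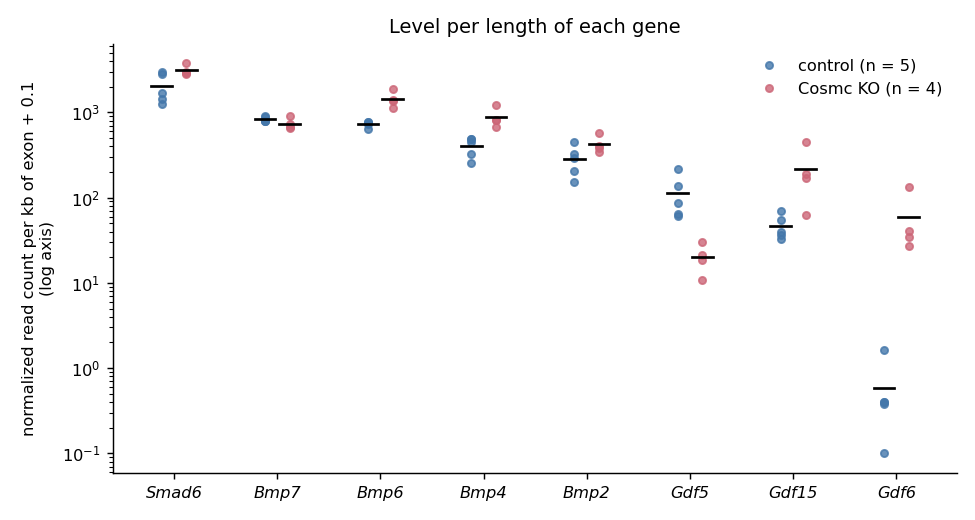
Normalized read count per kb of exon, plus 0.1, on a log axis for each gene in 5 control (blue) and 4 Cosmc KO (red) libraries, ordered by the control mean (black bars are means). Smad6 leads in both groups, Bmp6 lies below Bmp7 in controls and above it in Cosmc KO, and Gdf6 lies lowest in controls.

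The 8 genes were tested by Cre status among the controls, a contrast that played no part in choosing them. The 3 Cre-carrying controls were set against the 2 without Cre, which differ from each other in their Cosmc allele. Controls 2 and 3, without Cre, also had the highest summed proximal tubule markers of the controls (236921 and 211440). Controls 1, 4 and 5 had 71789, 116453 and 49497, so Cre and tubule content cannot be told apart in this contrast. None of the 8 passed limma's test (adjusted p = 0.506 to 0.983), and 0.00597% of all genes were called. At an unadjusted p under 0.05 there was 1 of the 8, against 1356 of all 16764 genes tested. That 1 was Gdf5, with means of 340 with Cre and 146 without. Its log2 difference was 1.12 ± 0.38 (adjusted p = 0.506 in limma's fit over all genes). Gdf6 rested on 0 to 5 reads in these libraries. The only gene called, among 1356 with an unadjusted p under 0.05, was Prm1, a sperm chromatin protein gene that was named after its values were seen. It had 3283, 1892 and 2851 in Cre-carrying controls 1, 4 and 5 and 5.47 and 2.00 in controls 2 and 3 (limma adjusted p = 0.00281); it read 424 to 1078 in the Cosmc KO libraries. Against the 3 Cre-carrying controls alone, the Cosmc KO difference was -2.83 ± 0.41 for Gdf5 and 5.81 ± 0.64 for Gdf6.

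The rest of the pathway was examined with a list of 80 further genes, of which 60 had values to test. In limma's fit 7 rose, 3 fell and 50 did not pass (16.7% called, against 7.74% of all genes), and the median log2 fold change was 0.09 against 0.00 over all genes. With the replicate block 11 rose and 5 fell (16.6% of all genes called). With the tubule covariate 6 rose and 2 fell (5.17% of all genes). Without Cosmc KO 1, 11 rose and 8 fell (29.1% of all genes), while leaving out any other single library gave 5 to 8 called genes.

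The 3 largest rises among the called pathway genes were those of the extracellular antagonists Sost, Bmper and Chrd. Of 17 tested, 4 rose and 0 fell, with a median of 0.46 (4.16% of all genes were called higher and 3.58% lower). With the tubule covariate 3 rose and 1 fell. The 1 lower was Sostdc1, named after its values were seen, with -0.58 (limma adjusted p = 0.0483). Without the covariate it had -0.13 ± 0.25 (limma adjusted p = 0.747). Sost, which encodes sclerostin and is known mainly as a Wnt inhibitor of bone, read 280, 159, 276, 236 and 176 in the controls by number. Cosmc KO 1 to 4 read 1036, 1004, 618 and 1103. It rose by 2.06 ± 0.23 (limma adjusted p = 0.00113). Bmper, a secreted BMP-binding protein of endothelial cells, rose from 349 ± 85.3 to 1309 ± 268 (1.92 ± 0.20, limma adjusted p = 0.000766), from at most 478 in controls to at least 1061 in Cosmc KO. Both were called with each library left out in turn and with the tubule score as a covariate. Chrd, the ligand trap chordin, rose from 48.1 ± 8.04 to 102 ± 29.3 (1.04 ± 0.23, limma adjusted p = 0.0267), and Fstl1, a follistatin-like glycoprotein, from 14429 ± 1980 to 20928 ± 2936 (0.54 ± 0.13, limma adjusted p = 0.0395). Chrd was not called without control 1, 2 or 5 or Cosmc KO 2 or 3 (adjusted p = 0.0529 to 0.0905), and with the tubule covariate Chrd had 0.101. Fstl1 stayed called without Cosmc KO 1 but in none of the other 8 such fits (0.0511 to 0.0994). The abundant antagonists Crim1 (0.22 ± 0.17) and Twsg1 (0.27 ± 0.09) did not pass (limma adjusted p = 0.408 and 0.0858). Fst, follistatin, named after its values were seen, read 139, 70.3 and 92.3 in Cosmc KO 2 to 4 but 14.7 in Cosmc KO 1, within the control range of 7.55 to 34.7 (adjusted p = 0.0938, 0.0147 with the replicate block and 0.373 under the tubule covariate).

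**Figure D5:**
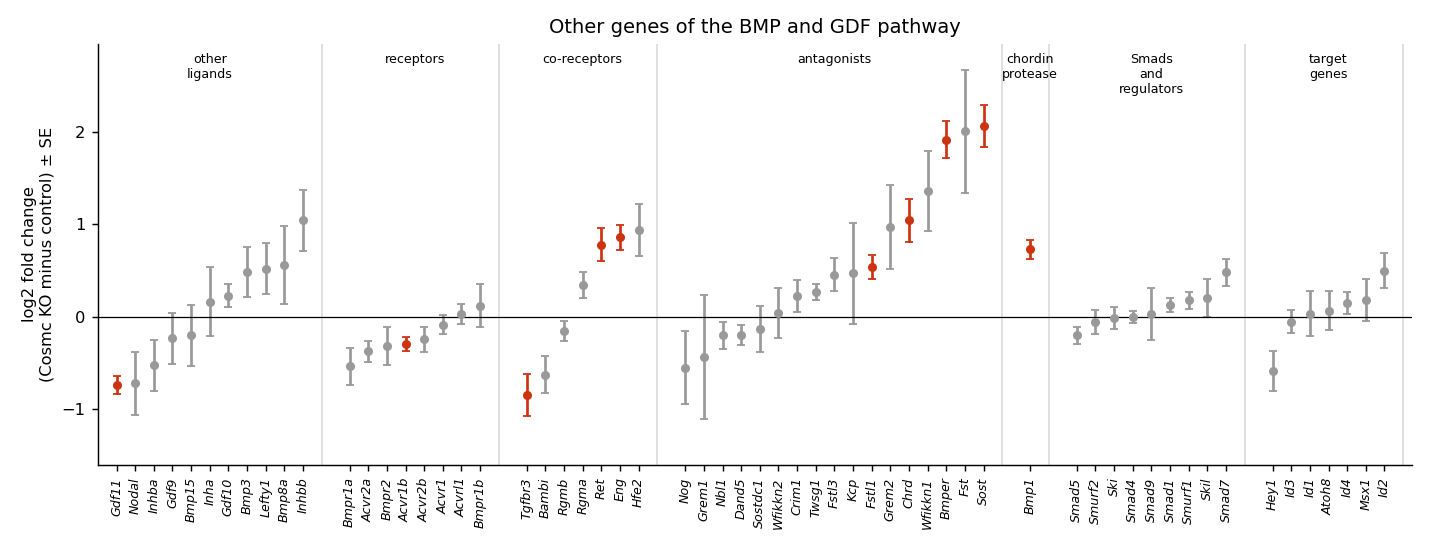
Log2 fold change (Cosmc KO minus control, vertical axis) with its SE for the 60 other pathway genes tested, grouped by role. Red marks the 10 genes past an adjusted p of 0.05 in limma's fit: 7 above 0, among them the antagonists Sost (2.06) and Bmper (1.92), and 3 below 0.

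Bmp1, the protease that cleaves chordin and also procollagens, rose from 2303 ± 245 to 3824 ± 464 (0.73 ± 0.10, limma adjusted p = 0.00348). All 4 Cosmc KO libraries (3508 to 4513) exceeded all controls (1973 to 2664). It was the sole chordin protease of 3 listed with a row in the table.

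Of 8 receptor genes tested, 1 fell and none rose, with a median of -0.27 (7.74% of all genes were called). Acvr1b, a type I receptor for activins and some GDFs, fell from 2962 ± 107 to 2418 ± 199 (-0.30 ± 0.07, limma adjusted p = 0.0376). It was not called without any 1 of controls 1 to 5 or Cosmc KO 2 or 3 (adjusted p = 0.0639 to 0.114), nor with the tubule score as a covariate (0.0733), where the estimate was -0.31 and thus no smaller. For the abundant BMP receptors Bmpr2 and Bmpr1a the estimates were -0.31 ± 0.20 and -0.54 ± 0.20 (limma adjusted p = 0.329 and 0.122). Bmpr1a passed with the replicate block (0.0299), and both passed without Cosmc KO 1, the Cosmc KO library with the lowest summed tubule and the highest summed podocyte markers (Bmpr2 0.0241, Bmpr1a 0.00801). Under the tubule covariate the estimates shrank to -0.19 for Bmpr1a (limma adjusted p = 0.493) and -0.05 for Bmpr2 (0.928).

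Co-receptors went both ways, with 2 of 7 higher and 1 lower (median 0.34, with 7.74% of all genes called). Eng, the endothelial co-receptor endoglin, read 45637, 41203, 56278, 42833 and 40484 in controls and 72388, 88958, 82975 and 82720 in Cosmc KO. It rose by 0.86 ± 0.13 (limma adjusted p = 0.00539), with every Cosmc KO library above every control, and was called with each library left out. The summed endothelial markers overlapped between the groups (402402 to 541723 against 375384 to 602237), and none of the 8 passed. The part of endothelial content in the Eng difference was not tested. Ret, the receptor kinase that pairs with Gfral for Gdf15 and with other co-receptors for the neurotrophic factor Gdnf, rose from 121 ± 13.0 to 211 ± 43.3 (0.78 ± 0.18, limma adjusted p = 0.0271). It was not called without control 2, 3, 4 or 5 or Cosmc KO 3 or 4 (adjusted p = 0.0508 to 0.0835). Tgfbr3, betaglycan, fell from 8308 ± 2088 to 4691 ± 1482 (-0.85 ± 0.22, limma adjusted p = 0.049), with overlap between the groups, and was called without Cosmc KO 1 (0.00784) but in none of the other 8 fits that leave out a library (0.0614 to 0.135) nor with the tubule covariate (0.163). The pseudoreceptor gene Bambi had -0.63 ± 0.20 (adjusted p = 0.0819), and 0.00424 with the replicate block, but -0.30 under the tubule covariate (0.293). Rgmb, a co-receptor of the repulsive guidance family, had -0.15 ± 0.11 (limma adjusted p = 0.378). Hfe2, hemojuvelin, named after its values were seen, had 0.94 ± 0.28 (0.0707) and passed with the replicate block (0.0298).

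None of the 9 Smad and regulator genes and none of the 7 target genes passed limma's test, with medians of 0.03 and 0.07. At an unadjusted p under 0.05 there were 2 in each list, against 4603 of all 16764 genes tested. DESeq2 called 1 Smad or regulator gene and 0 targets, and edgeR called 0 in both lists. Without Cosmc KO 1, limma called 2 targets, both named after their values were seen. Id2 had an estimate of 0.50 ± 0.19 over all libraries (adjusted p = 0.129, and 0.00744 without Cosmc KO 1), and Hey1 one of -0.59 ± 0.22 (0.12, and 0.0329). Under the tubule covariate these were 0.18 (0.527) and -0.34 (0.433). Id1 and Id3, direct targets of BMP-activated Smads, read 5565 ± 1905 and 10471 ± 1486 in controls and 5477 ± 953 and 10086 ± 1228 in Cosmc KO. Their log2 fold changes were 0.03 ± 0.24 and -0.05 ± 0.12 (limma adjusted p = 0.942 and 0.811). The Smad repressor Ski had -0.01 ± 0.12 and the ubiquitin ligase gene Smurf2 -0.05 ± 0.13. Smad7, the inhibitory relative of Smad6, named after its values were seen, had 0.48 ± 0.15 (limma adjusted p = 0.0723), and passed with the replicate block (0.0169).

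Of 11 other ligands tested, 1 fell and none rose (median 0.16, with 7.74% of all genes called). Gdf11, a ligand of activin receptors that acts in kidney bud formation in the mouse embryo, fell from 1302 ± 117 to 780 ± 70.1 (-0.74 ± 0.10, limma adjusted p = 0.00244). Controls ranged from 1168 to 1470 and Cosmc KO from 677 to 835, and it was called with each library left out. Gdf10, the most abundant of these by reads, had 0.23 ± 0.12 (adjusted p = 0.247), and Bmp3 0.48 ± 0.27 (adjusted p = 0.274). Inhbb, an activin subunit gene named after its values were seen, had 1.04 ± 0.33 (0.084) and passed with the replicate block (0.0434).

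The promoter of Smad6 is shown because Smad6 is a textbook target of the pathway it blocks. It was searched on both strands for GTCTAGAC, the palindromic Smad-binding sequence, and for GGCGCC, a GC-rich sequence bound by BMP-activated Smads. The RefSeq window on GRCm38.p6, from 250 bases before to 50 bases after the gene start (chr9:64022010-64022309, minus strand), holds GTCTAGAC once, in capitals, beginning 4 bases before the start.
Smad6 promoter: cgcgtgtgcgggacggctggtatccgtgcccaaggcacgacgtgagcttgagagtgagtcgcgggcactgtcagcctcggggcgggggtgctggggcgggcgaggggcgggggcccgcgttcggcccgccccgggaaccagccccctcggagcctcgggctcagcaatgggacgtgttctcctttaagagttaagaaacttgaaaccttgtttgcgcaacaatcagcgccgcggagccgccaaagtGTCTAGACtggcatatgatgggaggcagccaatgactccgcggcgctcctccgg
GTCTAGAC occurs in 0.213% of all 32851 promoter windows of 300 bases and GGCGCC in 11.9%. The Smad6 window holds no GGCGCC, and neither sequence is in the windows of Bmp4, Bmp6 and Gdf15. These 4 of the 8 genes had a promoter window. A match is a description of the letters and not a binding site.

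The genes with the most similar profiles over the 9 libraries were found by the root-mean-square difference of standardized log2(value + 1), among 12993 genes. For Gdf6 these were Slc7a1 (0.146), Tnfrsf19 (0.182), Ifi27l2a (0.188), Adamts14 (0.197) and Pdlim1 (0.202). Tnfrsf19, a receptor of the tumour necrosis factor family, read 287 to 478 in controls and 1325 to 1794 in Cosmc KO, highest in Cosmc KO 4 as Gdf6 was. For Gdf5 they were Diexf (0.238), Usp28 (0.251), Rcbtb1 (0.253), Blmh (0.27) and Lrrc10b (0.285). For Gdf15 they were Dtnbp1 (0.19), the lysosomal protease gene Ctsd (0.199), Capn10 (0.205), Ribc1 (0.21) and Banf1 (0.212). For Bmp7 they were Ptp4a1 (0.161), Ptpn12 (0.187), Wdr26 (0.19), Cdkn1b (0.195) and Fbxo38 (0.197). Genes chosen this way share the libraries and the group difference.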

How the data were processed

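Poly(A) RNA of isolated glomeruli was measured in 5 control and 4 Cosmc KO mice, grouped by sample title. Per the submitters' processing notes, the tools were STAR 2.5.2b, Subread 1.5.2 with featureCounts, and DESeq2, on GRCm38; filters and strandedness are not given in the sources used here. The authors deposited a signal per sample, gene reads divided by a size factor, and a table of their log2 fold change, Wald score, p-value and adjusted p-value per gene. All values were whole multiples (100% within 0.01 of a step) of 1 step per library, so reads were recovered; the step of control 3 is close to 1, and DESeq2 was also run without it. Every pair of libraries differed by more than sampling noise (chi-square over its degrees of freedom at least 26.2).

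limma 3.58.1 with a trend was fitted in R 4.3.3 to log2(value + 1) of 16764 genes with at least 10 in at least 4 libraries, with Benjamini-Hochberg adjustment over all of them. Fold changes on this scale understate low genes. The fit was tested on simulated data, which held no pair, age or tubule differences between libraries. Alternatives included DESeq2 1.42.0, edgeR 4.0.16, other filters, pseudocounts, covariates and leaving out each library. The members, gene lists and tests were chosen with earlier results of these data known. Up to 6 called and the 2 most abundant uncalled genes of each list are named. Replicate numbers were taken to pair animals because deviations from group means correlated at 0.54, 0.51, 0.34 and 0.27 for numbers 1 to 4, which share ages; the best match was the own number for only 2 of the 4, and the labels name no litters. Per the labels' protocols, the groups had as many animals as libraries, so p-values cover the spread among animals.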

Additional observations from a re-analysis of the deposited data

Results flagged for a closer look

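In groups of 4 or 5 libraries, 5 of 68 groups of values had a library standing apart from the rest by Dixon's criterion, which chance gives in about 1 in 20 groups. Gdf6 stood apart in both groups: control 5 read 5.39 against at most 1.06 in the other controls, a gap of 4 to 5 reads, and Cosmc KO 4 read 476 against 144 for the next library. Smad6 was highest in Cosmc KO 1, at 11979 against 9545. The antagonist Crim1 was highest in control 1 (26751 against 20299), and Bmp1 in Cosmc KO 4 (4513 against 3653).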

How the results depend on the processing

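The count of genes called between Cosmc KO and control was 1298, and moved to 2699 with DESeq2 on recovered reads, 2215 with DESeq2 without control 3 (added after seeing the data), 2790 with the replicate block and 438 with Cre-carrying controls only. Leaving out single libraries gave 523 (without Cosmc KO 3) to 4884 (without Cosmc KO 1). The count of other pathway genes called was 10, and moved to 17 with DESeq2, 16 with the replicate block and 5 with Cre-carrying controls only; single libraries left out gave 5 to 19, the highest without Cosmc KO 1. The count of the 8 genes past the threshold, 5, ranged from 4 to 7 over all alternatives, and from 4 to 6 with single libraries left out. The Cre comparison among controls called 1 gene, which became 0 without control 1 and 176 without control 4. TMM rescaling moved the median log2 fold change of all genes from 0.00 to -0.02 and the higher share of calls from 53.8% to 44.1%; edgeR gave 49.5%, the replicate block 57.4%, Cre-carrying controls 64.8% and the fit without Cosmc KO 1 49.9%. Of the 8 genes' log2 fold changes, that of Bmp7 changed sign, to 0.0029, when the tubule score was a term, and that of Gdf6 moved with a pseudocount of 4. The replicate block changed the calls of Bmpr1a and Bambi among the pathway genes named by rule. The cause of these changes was not tested. Depth limits Gdf6 in controls, where the values rest on 8 reads in all.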
